A study of Mus musculus with 30 samples.

Results

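Peritoneal macrophages of LPS-treated mice were compared between an exchanged and a native Ptgs2 locus. Of the 30 samples of the study, 24 came from mice given LPS. The Ptgs2 locus was exchanged in 12 of them, 6 COX-1>COX-2 and 6 Reversa samples, and native in the other 12, 6 WT+LPS and 6 COX-2>COX-1 samples. The groups were taken from the labels, with no measured value used. The state of the Ptgs1 locus, exchanged in Reversa and COX-2>COX-1 and native in COX-1>COX-2 and WT+LPS, was kept as a covariate. Of the 248 target genes on the panel, 196 had a signal above 20 in at least 6 of the 24 samples and were tested.

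All mice were C57BL/6, aged 12 to 16 weeks, and all 4 groups received 2 mg/kg of lipopolysaccharide (LPS), a bacterial cell wall component, into the peritoneum 6 h before the cells were taken. As background on these lines, the Ptgs2 locus of COX-1>COX-2 mice holds the Ptgs1 coding sequence, which encodes COX-1. Reversa mice carry that exchange and its opposite, in which the Ptgs1 locus holds the sequence that encodes COX-2. WT+LPS mice carry both loci in their native form, and COX-2>COX-1 mice carry the exchange at the Ptgs1 locus alone. The remaining 6 samples were wild-type mice given vehicle (WT-LPS). No mice with exchanged loci received vehicle, so the comparison is between treated mice only.

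Both cyclooxygenases turn arachidonic acid into prostaglandin H2, from which prostaglandins, prostacyclin and thromboxane are made. Ptgs1 is expressed steadily in many cells, while Ptgs2 is induced by LPS and cytokines in macrophages. Prostaglandin E2 acts through the receptors Ptger1 to Ptger4 and prostacyclin through Ptgir, and both can damp or sustain parts of the inflammatory response of macrophages. In COX-1>COX-2 and Reversa mice the Ptgs2 promoter drives the COX-1 enzyme.

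The nCounter method hybridises each RNA molecule to a barcoded probe and counts the barcodes directly, with no amplification. The values are the deposited signal, which equals 8147.9 for the geometric mean of Cltc and Gapdh in every lane. Read from the steps of the low values, the 24 LPS lanes held 339365 to 1001557 counts. Reversa samples 55 and 56 were nearly identical (chi-square per gene 1.26, next closest pair 20.7) and were averaged to 1, which leaves 5 Reversa values. The samples were spread evenly over 3 runs, in which each group held its own pair of lanes, so lane position and genotype cannot be told apart. Of the 10 macrophage markers tested, C1qa and Tyrobp among them, 9 were above a signal of 20 in every LPS sample. The other, Trem2, was under 20 in 3 of the 5 Reversa values and in 1 COX-2>COX-1 sample. None of the 10 passed the test of the Ptgs2 locus, and 7 had a negative log2 difference. Their median was -0.29, beside -0.10 over all genes tested. In Reversa against COX-2>COX-1 it was -0.44, beside -0.14 over all genes tested. For the Ptgs2 locus in runs 1, 2 and 3 alone the marker median was -0.57, 0.13 and -0.13, beside -0.25, 0.08 and -0.08. Their summed signal was 16687 to 53137 with the exchanged locus and 30680 to 59579 with the native locus, and the part of these levels in the results was not tested.

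The promoters of Ptgs2 and Cxcl10 are shown because Ptgs2 names the locus under test and Cxcl10 holds matches to motifs of both pathways that LPS engages. The sequences are the 250 bases before the RefSeq start of each gene on GRCm38.p6, written 5′ to 3′ on the strand of the gene, with motif matches in capitals. The Ptgs2 promoter lies at chr1:150099781-150100030 on the plus strand, and the Cxcl10 promoter at chr5:92348890-92349139 on the minus strand.
Ptgs2: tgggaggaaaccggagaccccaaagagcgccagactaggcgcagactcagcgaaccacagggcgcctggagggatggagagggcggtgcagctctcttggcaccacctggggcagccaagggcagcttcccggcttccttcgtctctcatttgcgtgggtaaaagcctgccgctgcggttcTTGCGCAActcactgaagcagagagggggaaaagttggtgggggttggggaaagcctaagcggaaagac
Cxcl10: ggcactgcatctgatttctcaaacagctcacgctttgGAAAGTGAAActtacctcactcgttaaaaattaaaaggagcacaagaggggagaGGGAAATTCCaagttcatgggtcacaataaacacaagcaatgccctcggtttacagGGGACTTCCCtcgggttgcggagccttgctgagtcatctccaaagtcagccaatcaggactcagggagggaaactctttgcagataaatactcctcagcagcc
In Ptgs2 the capitals mark a match to the C/EBP motif TTNCGCAA, at bases -69 to -62 from the start, which 0.67% of 32851 mouse promoters of this length hold on either strand. In Cxcl10 they mark, in order, an interferon-stimulated response element (ISRE, the letters GAAA, any 2 bases and GAAA) at -213 to -204 and NF-kB matches at -159 to -150 and -103 to -94. Of all promoters, 2.98% held the ISRE letters and 3.9% the NF-kB motif. Among the 18 genes that passed the test, 16 had a promoter in the RefSeq table, and 2 of these held an ISRE match, 2 an NF-kB match and 1 a C/EBP match. The matches describe the letters in these windows and not binding.

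Levels of the exchanged genes fitted the labels. The sources used here do not say which stretch of each transcript the probes bind. Ptgs2 had 1, 1.08 and 1.76 (lowest, median and highest) in the 6 COX-1>COX-2 samples. In the Reversa samples, given here and below as 51, 52, 53, 54 and the mean of 55 and 56, it had 88.0, 282, 308, 487 and 293. With the native locus it had 3719, 4664 and 7007 in WT+LPS and 4714, 5320 and 10194 in COX-2>COX-1 samples. No sample with the exchanged Ptgs2 locus reached the lowest of the native samples. All COX-1>COX-2 samples lay below 20, a level which none of the 192 negative-control values of the LPS lanes exceeded. Against that level the signal of Ptgs2 was at least 240.6-fold lower in COX-1>COX-2 than in WT+LPS samples. Its mean log2 difference between exchanged and native locus was -7.83 (exact two-sided permutation within the Ptgs1 locus states, p = 2.34e-06, the smallest that the design allows, and 4.69e-06 after adjustment over both genes). The 6 vehicle-treated wild-type samples had 1 to 30.7.

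Ptgs1 had 300.0, 444 and 554 in COX-1>COX-2 samples, and 135, 512, 128, 119 and 308 in the Reversa samples. It had 156, 242 and 347 in WT+LPS samples and 1, 1.81 and 5.77 in COX-2>COX-1 samples. Reversa samples, in which the Ptgs2 locus is the only one with the COX-1 sequence, spanned the range of WT+LPS samples. COX-2>COX-1 samples all lay below 20. The mean log2 difference between exchanged and native Ptgs2 locus was 3.46 (exact two-sided permutation, p = 4.69e-06). Against the level of 20, Ptgs1 was at least 10.03-fold higher in Reversa than in COX-2>COX-1 samples. Vehicle-treated wild-type samples had 2096 to 3062, above every sample with LPS.

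**Figure D1:**
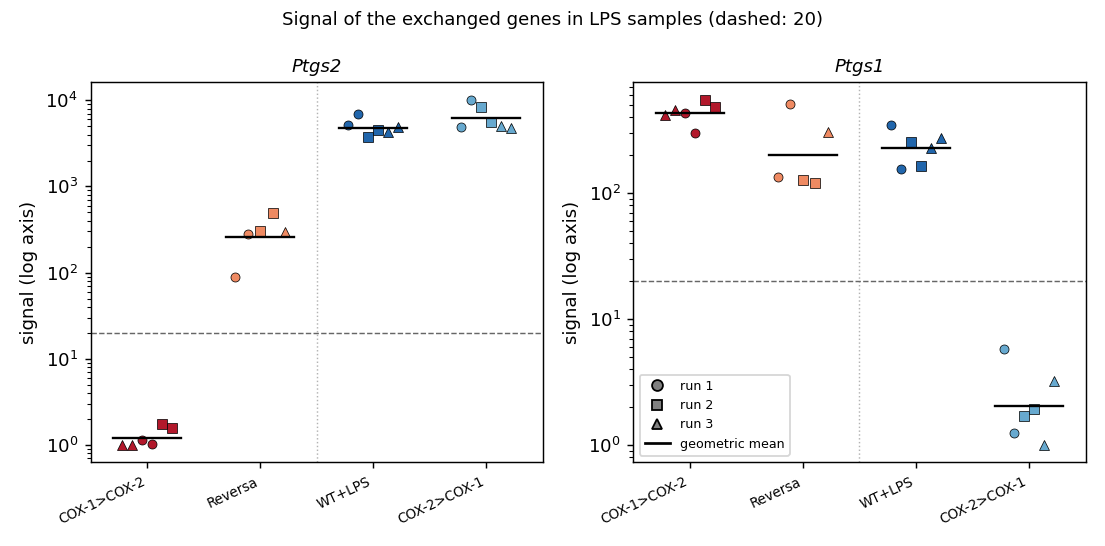
Signal of Ptgs2 (left) and Ptgs1 (right) on a log axis in each LPS sample, by group, with the nCounter run as symbol and the geometric mean as a bar; the dashed line is a signal of 20. Ptgs2 is highest in the native groups right of the dotted line and below 2 in COX-1>COX-2, and Ptgs1 is below 20 only in COX-2>COX-1.

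Across the 196 genes, 18 changed with the Ptgs2 locus (limma on log2(signal + 1), adjusted p under 0.05), which is 9.18% of those tested. With the exchanged locus 6 genes (3.06%) were higher and 12 (6.12%) lower. Besides the exchanged genes, the chemokines Ccl5, Cxcl9 and Cxcl10, the interferon-induced Ifi44, the receptors Tlr8, Tlr6, Ptger3, Il18rap and Cd4, and Bcl6 and Rapgef2 fell. Limk1, Flt1, Mafg, Il13 and Ptgir rose. At an unadjusted p under 0.05 the count was 53, and the median log2 difference of all genes was -0.10, with 118 of 196 negative. The balance of higher and lower calls depended on the scaling. At equal total signal 25 genes were higher and 8 lower, with a median log2 difference of all genes of 0.12, and at the scaling to 4 reference genes, without Gapdh and Pgk1, 7 were higher and 9 lower. Total signal was 471597 to 710080 with the exchanged locus and 620696 to 773828 with the native locus. Of the 18 calls 14 were shared with the fit at equal totals, where Cd4, Il18rap, Tlr6 and Bcl6 missed the threshold.

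**Figure D2:**
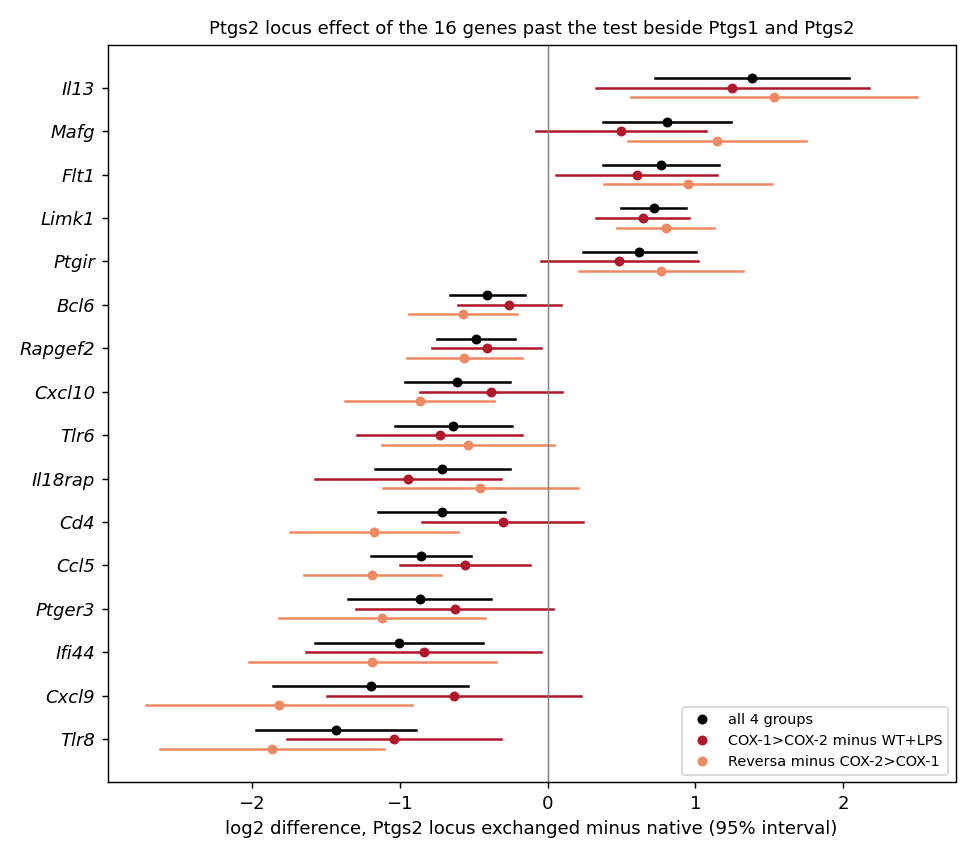
Log2 difference (exchanged minus native Ptgs2 locus) with its 95% interval for the 16 genes past the test beside Ptgs1 and Ptgs2, over all 4 groups (black), for COX-1>COX-2 minus WT+LPS (dark red) and for Reversa minus COX-2>COX-1 (orange). The 11 lower and 5 higher genes were chosen on the mean of both contrasts, which nearly fixes a shared sign.

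The chemokines Ccl5, Cxcl9 and Cxcl10 were lower with the exchanged locus. Of 11 tested monocyte and lymphocyte chemokines 3 fell and none rose (6.12% of all genes tested fell), with a median log2 difference of -0.12 over the list against -0.10 over all genes. Ccl5, which attracts T cells and monocytes, had 13339, 22025 and 42177 (lowest, median and highest) with the exchanged locus, against 28580, 40446 and 65482 with the native locus. The 5 Reversa samples had 13339, 18018, 15679, 20052 and 26076 and all lay below the lowest COX-2>COX-1 sample. COX-1>COX-2 samples reached from 20150 to 42177 and overlapped the WT+LPS samples, at 37795 to 47793. The log2 difference of Ccl5 was -0.86 ± 0.16 (SE; limma, adjusted p = 0.0011). It was -1.14, -0.95 and -0.41 in runs 1, 2 and 3. Vehicle-treated wild-type samples had 1047 to 1728.

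Cxcl9 and Cxcl10 are interferon-induced ligands of the T cell receptor Cxcr3. Cxcl9 had 350.2, 997 and 3957 with the exchanged locus, against 1249, 2313 and 4300.2 with the native locus. The Reversa values were 355, 1724, 350.2, 425 and 997, with 4 of the 5 below every native sample, while COX-1>COX-2 samples spanned 879 to 3957. The log2 difference of Cxcl9 was -1.19 ± 0.32 (limma, adjusted p = 0.021). Without the Reversa samples of runs 2 and 3, an alternative chosen after the values were seen, it was -0.91 and no longer passed (limma, adjusted p = 0.078).

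Cxcl10 had 23053, 28770 and 57051 with the exchanged locus, against 39048, 53811 and 74737 with the native locus. Its log2 difference was -0.61 ± 0.17 (limma, adjusted p = 0.025), and the groups overlapped. It lost the call without COX-1>COX-2 sample 57 or Reversa sample 53 (limma, adjusted p of 0.0515 and 0.052), and with the spread estimated over all 5 groups, vehicle included (0.155). The other 8 chemokines of the list did not pass. Ccl24, an attractant of eosinophils, was closest, with a log2 difference of -0.70 (limma, adjusted p = 0.054).

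Neutrophil-attracting chemokines did not pass the test. Log2 differences were -0.68 for Cxcl1, -0.47 for Cxcl2, -0.80 for Cxcl3 and -0.85 for Cxcl5, with a list median of -0.74. Cxcl1, a ligand of the neutrophil receptor Cxcr2, had 2979, 6747 and 14815 with the exchanged locus and 4959, 10775 and 14837 with the native locus. The list split by run. In run 1 alone 3 of the 4 fell, where 17 of all 196 genes passed and the median over all genes was -0.25. Without the Reversa samples of runs 2 and 3, an alternative chosen after the values were seen, 3 of 4 also fell, with a median of -0.88. In that fit 28 of all 196 genes passed, and the median over all genes was -0.10. Cxcl3 had a log2 difference of -1.93 in run 1 (limma, adjusted p = 0.032), 0.25 in run 2 and -0.60 in run 3, and the list median was -1.70, 0.19 and -0.58. Neutrophil markers had a summed signal of 43 to 400 with the exchanged and 95 to 222 with the native locus, and their part in the result was not tested.

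Among 17 tested interferon-stimulated genes, 3 fell (Ifi44, Cxcl9 and Cxcl10) and none rose, and 14 had a negative difference, with a median of -0.23. Of all 196 genes 6.12% fell and 118 were negative, with a median of -0.10. At equal total signal 10 of the 17 were negative and the median was -0.01, against 0.12 over all genes. Ifi44, a protein induced by type I interferon, had 378, 819 and 1545 with the exchanged locus, against 587, 1571 and 3622 with the native locus. Samples overlapped, since COX-2>COX-1 had one sample at 587. The log2 difference was -1.0 ± 0.28 (limma, adjusted p = 0.022), and -1.33, -0.72 and -0.95 in runs 1, 2 and 3. With the spread estimated over all 5 groups Ifi44 did not pass (limma, adjusted p = 0.131). Ifit1, Ifit2 and Mx1, antiviral effectors of the same list, had log2 differences of -0.40, -0.47 and -0.44 and did not pass (limma, adjusted p of 0.14, 0.14 and 0.18). None of the 4 tested interferon regulatory factors passed.

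T and NK cell markers stood beside these genes as follows. Cd4, the co-receptor of helper T cells, was the one of 6 markers that passed, with 14.7, 36.6 and 44.2 with the exchanged locus and 30.4, 53.2 and 86.4 with the native locus. The log2 difference of Cd4 was -0.72 ± 0.21 (limma, adjusted p = 0.029), lost without COX-1>COX-2 sample 57, COX-2>COX-1 sample 51 or WT+LPS sample 53 (0.0591, 0.0539 and 0.0511). Ifng, the T and NK cell interferon that induces Cxcl9, had 156, 475 and 1314 with the exchanged locus and 385, 588 and 1152 with the native locus (log2 difference -0.64; limma, adjusted p = 0.16). Of the 6 markers 5 had a negative difference, with a median of -0.43 against -0.10 over all genes. In runs 1, 2 and 3 alone the list median was -1.05, 0.07 and -0.10, against -0.25, 0.08 and -0.08 over all genes. The 7 markers of this list on the panel summed to 882 to 10808 with the exchanged and 1233 to 3824 with the native locus. The highest sums were those of Reversa samples with high Il17a and Il22. Their part in the lower Ccl5, Cxcl9 and Cxcl10 was not tested, and in these bulk samples fewer cells of a type and less RNA per cell cannot be told apart.

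**Figure D3:**
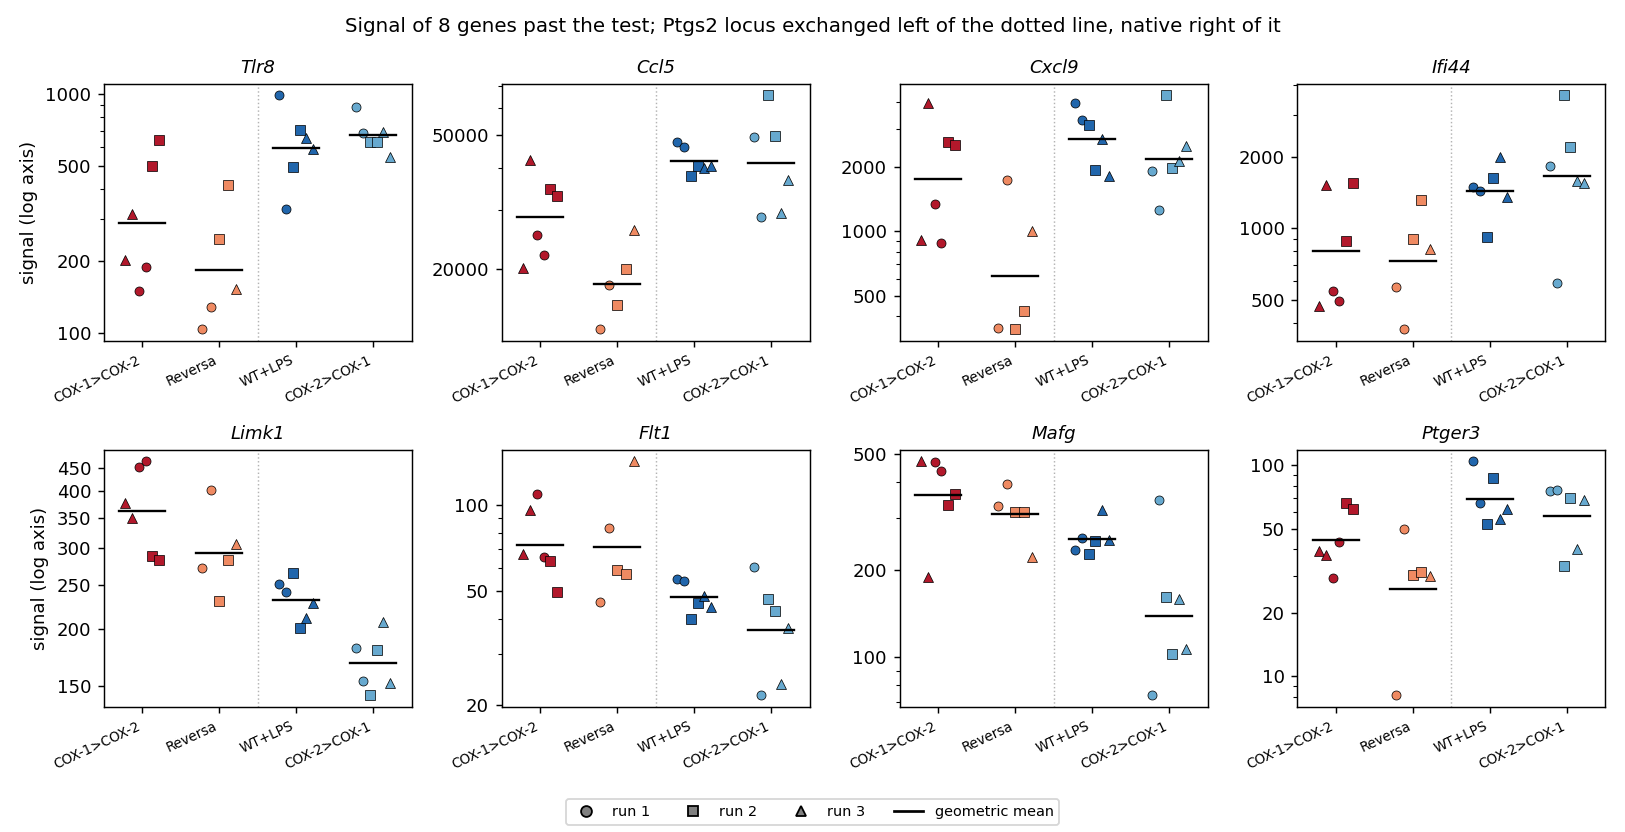
Signal (log axis) of 8 genes past the test in each LPS sample, with COX-1>COX-2 and Reversa left of the dotted line and WT+LPS and COX-2>COX-1 right of it; symbols give the run and bars the geometric mean. Tlr8, Ccl5, Cxcl9, Ifi44 and Ptger3 sit lower on the left and Limk1, Flt1 and Mafg higher, and in each panel the exchanged and native samples overlap.

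Among Toll-like receptors, 2 of 16 genes of the list fell and none rose, where 6.12% of all genes fell. The list median of -0.08 was no lower than the -0.10 of all genes. At equal total signal 2 of the list were higher and 1 lower, where 25 of all 196 genes were higher and 8 lower. The list median was then 0.13, against 0.12 over all genes. At each other scaling 1 of the list fell and none rose. Tlr8, an endosomal receptor of single-stranded RNA in humans, had 104, 203 and 643 with the exchanged locus, against 331, 645 and 990 with the native locus. The Reversa samples had 104, 129, 248, 416 and 153, all below the lowest COX-2>COX-1 sample at 548. COX-1>COX-2 samples had 150.3, 259 and 643, and WT+LPS samples 331, 623 and 990. Among the genes past the test Tlr8 had the largest fall after Ptgs2, with a log2 difference of -1.43 ± 0.26, or 2.69-fold lower (limma, adjusted p = 0.00077). In runs 1, 2 and 3 it was -2.25, -0.52 and -1.58, so run 2 gave the smallest difference. Vehicle-treated wild-type samples had 1175 to 1309, above every LPS sample.

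Tlr6, which pairs with Tlr2 to sense bacterial lipopeptides, had 124, 240.4 and 458 with the exchanged locus and 268, 432 and 528 with the native locus. Its log2 difference was -0.64 ± 0.19 (limma, adjusted p = 0.035). The call was lost under all 4 other scalings, with adjusted p between 0.0581 and 0.0747, with Reversa 55 and 56 kept apart (0.0761) and in 13 of the 23 fits that each left out 1 sample (0.0502 to 0.0746). Other endosomal receptors had log2 differences of -0.50 for Tlr3, -0.05 for Tlr7 and -0.04 for Tlr9, and none passed. Tlr4, the LPS receptor itself, differed by -0.13 and its partner Ly96 by -0.32, and neither passed (limma, adjusted p of 0.65 and 0.069).

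Prostanoid receptors moved in both directions. Of 4 tested, Ptger3 fell and Ptgir rose, where 6.12% of all genes tested fell and 3.06% rose. Ptger3, the EP3 receptor of prostaglandin E2, had 8.16, 37.4 and 66.4 with the exchanged locus and 33.5, 67.5 and 105 with the native locus, close to the level of 20. Its log2 difference was -0.86 ± 0.23 (limma, adjusted p = 0.021). Ptgir, the prostacyclin receptor, had 82.9, 209 and 323 with the exchanged locus, against 69.0, 129 and 211 with the native locus. The Ptgir difference was 0.62 ± 0.18 (limma, adjusted p = 0.033) and was 0.62, 0.72 and 0.65 in runs 1, 2 and 3. Leaving out COX-1>COX-2 57, COX-2>COX-1 51, 52 or 53, Reversa 52 or WT+LPS 54 ended the Ptgir call (adjusted p of 0.051 to 0.0636). Ptger2 and Ptger4, the EP2 and EP4 receptors, differed by 0.04 and -0.28 and did not pass. In the whole list of 12 eicosanoid enzymes and receptors, 2 rose and 2 fell, all named here and above. They include Ptgs1 and Ptgs2, whose exchange defines the groups. The lipoxygenases Alox5 and Alox15 did not pass.

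Limk1, the kinase that phosphorylates the actin-severing protein cofilin, was higher with the exchanged Ptgs2 locus in both states of the Ptgs1 locus. It had 230, 307 and 465 with the exchanged locus, against 144, 204 and 265 with the native locus. In Reversa samples it had 272, 402, 230, 284 and 307, above every COX-2>COX-1 sample, at 144 to 208. COX-1>COX-2 samples had 283 to 465, above every WT+LPS sample, at 201 to 265. Across both Ptgs1 locus states the ranges overlapped through the lowest Reversa sample. The log2 difference was 0.72 ± 0.11, or 1.64-fold (limma, adjusted p = 8.5e-05), and 0.94, 0.49 and 0.75 in runs 1, 2 and 3. Vehicle-treated wild-type samples had 445 to 623. Limk1 was the one of 10 MEF2 and actin-linked genes that passed, where 3.06% of all genes rose. Scaled to 4 reference genes or to equal medians of all genes tested, 2 of the 10 were higher. At equal total signal 4 of the 10 were higher, where 25 of all 196 genes were higher. Rhoa, a GTPase upstream of Limk1, differed by 0.04.

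Flt1, a receptor of vascular endothelial growth factor, had 46.0, 65.6 and 142 with the exchanged locus and 21.7, 44.7 and 60.9 with the native locus. Flt1 differed by 0.77 ± 0.19 (limma, adjusted p = 0.014), and the highest value was a Reversa sample. Flt1 also stands in the list of mesothelial, stromal or endothelial markers, where it was the one of 4 that passed. That list summed to 157 to 648 with the exchanged and 140 to 275 with the native locus, and the part of other cells in the result was not tested.

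Mafg, a small MAF protein that pairs with Nfe2l2 on DNA, had 188, 334 and 471 with the exchanged locus, against 74.3, 229 and 346 with the native locus. The difference was 0.81 ± 0.21 (limma, adjusted p = 0.018). Of the 6 COX-2>COX-1 samples, 5 were below every sample with the exchanged locus. Its relatives Mafk and Maff differed by -0.06 and 0.01 and did not pass.

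Il13, a type 2 cytokine, had 7.28, 26.2 and 76.3 with the exchanged locus and 1.84, 9.81 and 27.9 with the native locus. Native samples were mostly under 20, so the signal was at least 1.418-fold higher with the exchanged locus (fitted log2 difference 1.38 ± 0.32; limma, adjusted p = 0.0074). Among native samples only COX-2>COX-1 sample 52, at 27.9, lay above 20. Il13 thus met the filter on low signal through the exchanged samples, where it is high, which favours a call in this direction. Il13 was the 1 gene that passed of 20 in the list of alternative activation, of which 3 were higher at equal total signal. It was also 1 of the 2 tested genes of the mast cell and eosinophil list. Both are cytokines and need not mark those cells. The other, Il5, had a log2 difference of 0.74 and did not pass. The 5 genes of this list on the panel summed to 20 to 269 with the exchanged and 11 to 75 with the native locus. The part of these cell types was not tested. Il4 and Il3 were below the filter on low signal.

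The remaining genes that fell are a cytokine receptor subunit and regulators. Il18rap, the accessory subunit of the IL-18 receptor, had 67.5, 121 and 259 with the exchanged locus and 81.4, 210.1 and 367 with the native locus. Its log2 difference was -0.71 ± 0.22 (limma, adjusted p = 0.042), and it was 0.02 in run 2. Bcl6, a transcriptional repressor, differed by -0.41 ± 0.12 (limma, adjusted p = 0.035). Rapgef2, an exchange factor for Rap GTPases named here after its values were seen, differed by -0.48 ± 0.13 (limma, adjusted p = 0.020). Il18rap missed the threshold in 16 of the 23 fits that each left out 1 sample (adjusted p of 0.0511 to 0.0867) and Bcl6 in 12 (0.0504 to 0.0659). Il18rap was also lost with no filter on low signal (0.0554), with Reversa 55 and 56 kept apart (0.0577) and with 6 reference genes (0.0747). Bcl6 was lost under all 4 other scalings (adjusted p of 0.0575 to 0.276), and its log2 difference at equal totals was -0.19. The scaling to 6 reference genes ended the call of Rapgef2 too (0.0574).

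Pro-inflammatory cytokines, MAP kinases and complement genes did not pass. Of 17 cytokines none rose or fell, and 14 had a negative difference with a median of -0.32, beside 118 of 196 and -0.10 over all genes. At equal total signal 1 was higher, 11 were negative and the median was -0.10. With the signal as deposited, runs 1, 2 and 3 alone gave cytokine medians of -0.69, 0.11 and 0.01, against -0.25, 0.08 and -0.08 over all genes. In the fit without the Reversa samples of runs 2 and 3, where 28 of all 196 genes passed, 3 cytokines were lower. Tnf, the early macrophage cytokine, had 528, 759 and 1963 with the exchanged locus and 403, 504 and 1388 with the native locus, a log2 difference of 0.56 (limma, adjusted p = 0.13; 0.026 at equal total signal). Il6 differed by -0.03 and Il1b by -0.43. None of 17 genes of the MAP kinase list passed (median 0.08), nor any of 10 complement genes (median -0.05), nor any of 10 genes of the AP-1 and CREB list (median 0.12). At equal total signal 4 MAP kinase genes, 2 of the AP-1 and CREB list and 1 complement gene were higher. In that scaling 25 of all 196 genes were higher, and the median over all genes was 0.12. All 6 genes of MHC class II and costimulation had a negative difference, of which Cd4 passed. At equal totals 4 were negative and none passed, with a list median of -0.04 against 0.12 over all genes. The fit without the Reversa samples of runs 2 and 3 also gave 4 negative genes of this list and none that passed.

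The Ptgs2 locus effect was then taken apart by the state of the Ptgs1 locus, in 2 contrasts that share no samples. With the native Ptgs1 locus (COX-1>COX-2 minus WT+LPS) 2 of 196 genes passed (1.02%), Ptgs2 and Limk1, with a log2 difference of 0.64 for Limk1 (limma, adjusted p = 0.031). At the 4 other scalings Ptgs2 alone passed, which made the split 0 higher and 1 lower. With the exchanged Ptgs1 locus (Reversa minus COX-2>COX-1) 20 genes passed (10.2%), 10 higher and 10 lower (5.1% each). At equal total signal the split was 22 higher and 6 lower, and with all 6 reference genes 9 and 5. Both contrasts were tested with 1 spread for all 4 groups. Reversa samples varied most, with a median SD of 0.57 against 0.29 to 0.34 in the other groups. The adjusted p-values of the contrast with Reversa may therefore be too small. Values of the 2 groups did not overlap for 3 genes (1.53%) with the native and 7 (3.57%) with the exchanged Ptgs1 locus, and over all 4 groups for Ptgs2 only (0.51%).

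All 18 genes had the same sign in both contrasts, which their choice on the mean of the 2 contrasts nearly fixes. Across the 194 genes other than Ptgs1 and Ptgs2, 130 (67%) had the same sign, with Pearson r of 0.45 and Spearman rho of 0.47, given as a description, since genes are not independent and both contrasts share runs and scaling. Tlr8 differed by -1.04 in COX-1>COX-2 against WT+LPS and by -1.86 in Reversa against COX-2>COX-1. The test of that difference gave -0.83 with a 95% interval of -1.87 to 0.22 (limma, adjusted p = 0.78). For Cxcl9 the values were -0.63 and -1.81, with a difference of -1.18 (interval -2.43 to 0.06; limma, adjusted p = 0.65). For Limk1 they were 0.64 and 0.80, with a difference of 0.15 (interval -0.30 to 0.61). A larger number of calls in 1 contrast is therefore not itself a difference between the Ptgs1 locus states.

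**Figure D4:**
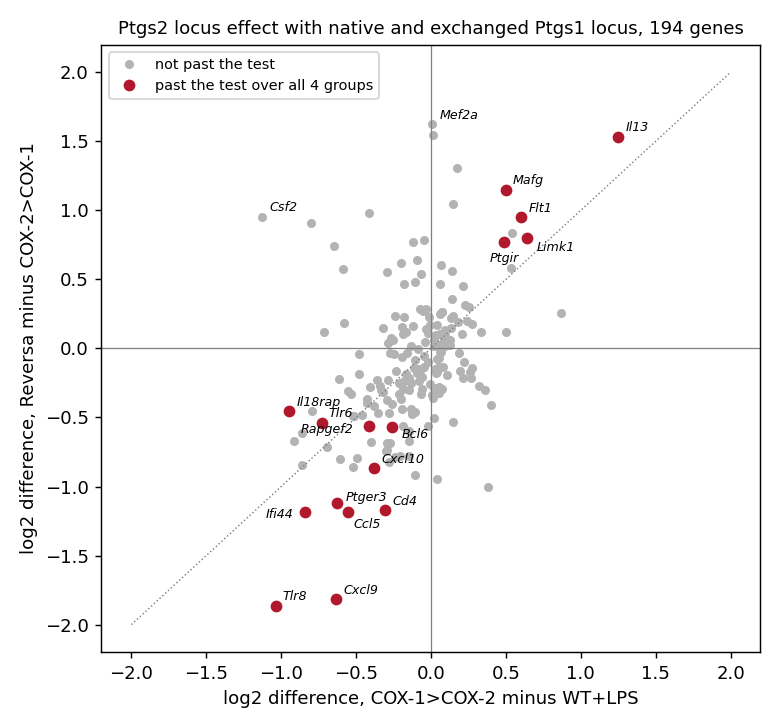
Log2 difference of each of 194 genes (Ptgs1 and Ptgs2 left out) in COX-1>COX-2 minus WT+LPS on the horizontal axis and in Reversa minus COX-2>COX-1 on the vertical axis; red points passed the test over all 4 groups and the dotted line marks equal values. All red points lie in the lower left or upper right quadrant, and Mef2a and Csf2 lie away from the line.

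The difference between the contrasts passed for 4 genes (2.04%), all with a positive sign. They were Ptgs2 (6.49) and Ptgs1 (5.07), whose exchange defines the groups, Mef2a and Csf2. Mef2a, a DNA-binding regulator of the MEF2 family, had 359, 289, 337, 252 and 223 in Reversa samples, against 50.4, 98.7 and 160 in COX-2>COX-1 samples, with no overlap. With the native Ptgs1 locus it had 122, 297 and 387 in COX-1>COX-2 samples and 199, 269 and 295 in WT+LPS samples, which overlapped fully. Its log2 difference was 1.63 with the exchanged and 0.01 with the native Ptgs1 locus, a difference of 1.62 (interval 0.80 to 2.43; limma, adjusted p = 0.031). The call was lost without COX-1>COX-2 33, COX-2>COX-1 51 or 56, Reversa 52 or 53, or WT+LPS 52, 54 or 55 (adjusted p of 0.0502 to 0.0689), and with a filter on all LPS columns (0.0671).

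Csf2 (GM-CSF), a growth factor of macrophages and granulocytes, was lower in COX-1>COX-2 samples, at 6.42, 16.1 and 24.6, than in WT+LPS samples, at 25.3, 31.9 and 61.7, without overlap. Reversa samples had 21, 60.9, 85.1, 139 and 91.6, against 22.8, 37.1 and 50.3 in COX-2>COX-1 samples. The log2 differences were -1.13 and 0.95, opposite in sign, and neither contrast passed alone (limma, adjusted p of 0.27 and 0.14). The difference between them was 2.08 (interval 0.98 to 3.18; limma, adjusted p = 0.035). It was lost without the Reversa samples of runs 2 and 3 (adjusted p = 0.39) and in 14 of the 23 fits that each left out 1 sample (0.0527 to 0.0979). H2-Ea-ps, Creb1 and Cd55 came next, with differences of -1.39, 0.89 and 0.83, and did not pass (limma, adjusted p of 0.17, 0.25 and 0.27).

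The Ptgs1 locus, the other term of the same fit, had 9 genes past the test (4.59%), 4 higher (2.04%) and 5 lower (2.55%) with the exchanged Ptgs1 locus. Apart from Ptgs1 and Ptgs2, Limk1 passed for both loci, with a log2 difference of -0.38 for the exchanged Ptgs1 locus (limma, adjusted p = 0.037) and 0.72 for the exchanged Ptgs2 locus.

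The runs carried the result unevenly. In run 1 alone, with 2 samples per group, 17 genes passed, and in run 2 alone 1. The 17 were only partly the genes called over all runs. Cxcl9, Ifi44, Cd4, Ptger3, Flt1, Mafg, Ptgir, Bcl6 and Ptgs1 did not pass in run 1 alone. In run 3 Reversa had a single value, which is assumed to vary like the other groups. Of the 18 genes 17 kept their sign in all 3 runs, Il18rap being the exception, which their choice on all runs together favours. All 18 passed with run as a block, a fit of the same samples. Leaving out COX-1>COX-2 sample 59 gave 29 genes past the test, and leaving out COX-1>COX-2 sample 57 gave 12. Reversa samples varied most, with a median SD over genes of 0.57 (log2) against 0.34 in COX-1>COX-2, 0.29 in WT+LPS and 0.34 in COX-2>COX-1 samples.

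**Figure D5:**
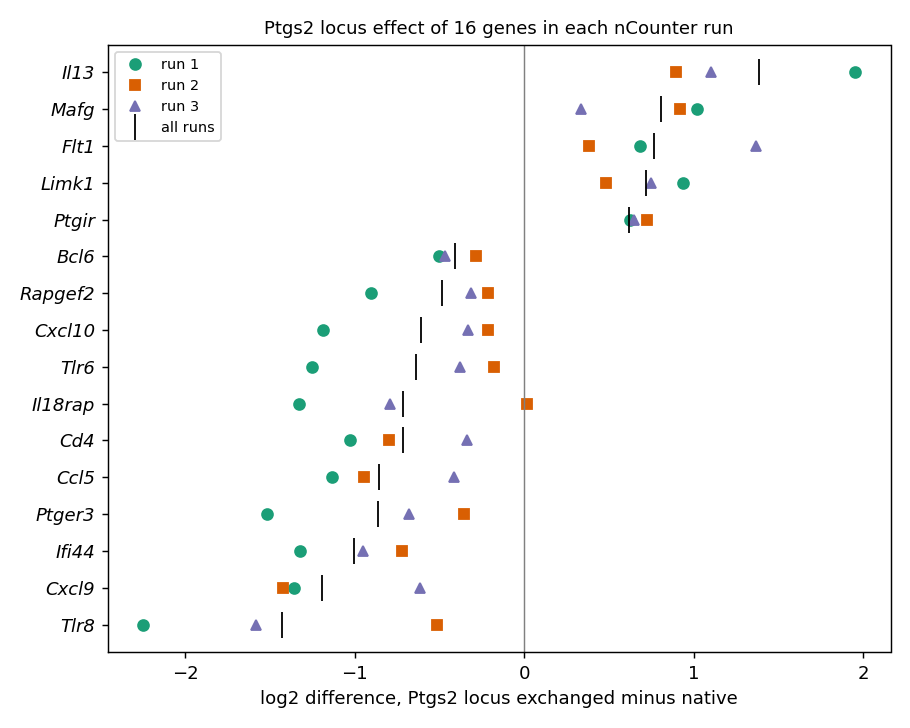
Log2 difference (exchanged minus native Ptgs2 locus) of the 16 genes past the test beside Ptgs1 and Ptgs2 in each nCounter run alone (symbols) and over all runs (black tick). Run 1 gives the most negative value for 10 of the 11 lower genes, Cxcl9 being the exception, and Il18rap is near 0 in run 2.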

How the data were processed

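RNA of peritoneal macrophages was measured on an nCounter mouse inflammation panel. The RNA had integrity numbers of 7.0 or more and entered at 20 ng/µl, per the labels' protocols. The authors deposited a signal value for each gene in each sample. The sources used here do not say how the signal was made from counts, but in the values it has a floor of 1 and an equal geometric mean of Cltc and Gapdh in all lanes. The larger table, of 268 rows, was used; its values equal those of the smaller table of 266 rows.

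Groups came from the labels, and run and lane from the column names. Reversa 55 and 56 were averaged. Counts were recovered from the steps of low values (100% within a tolerance of 0.1) and used for depth and for comparing sample pairs, not for tests of genes. The signal was tested as log2(signal + 1), which understates the change of low genes, with limma 3.58.1 in R 4.3.3. The additive model held the Ptgs2 and the Ptgs1 locus, and a second fit had 1 mean per group. P-values were two-sided and adjusted by Benjamini-Hochberg over 196 genes, with a threshold of 0.05. The fit was also run on simulated normal data with 1 spread per gene for all groups. That simulation does not check the wider spread of Reversa samples or genes that vary together. Folds against a group mostly under 20 set its values to no less than 20. The labels describe separate mice.

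Named genes were Ptgs1 and Ptgs2, the 10 largest and 10 smallest changes among those past the test, up to 3 per gene list by p and the 5 of smallest p for the difference between Ptgs1 locus states. Other named genes, such as Il6, Tlr7 and Il17a, were chosen after their values were seen. The comparison, gene lists and alternatives were chosen with earlier results of these data known. Of 254 panel symbols 247 matched RefSeq. Alternatives were other scalings, filters, pseudocounts, runs, blocks and left-out samples. Python 3.11.15 with numpy 2.4.6, pandas 2.3.3 and matplotlib 3.10.9 was used for tables and plots.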

Additional observations from a re-analysis of the deposited data

Results flagged for a closer look

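Of 152 combinations of a named gene and a group examined, 7 held a sample far from the others of its group (gap to the nearest sample over the range of the group on the log2 scale, past Dixon's 95% critical value for its number of samples). Chance gives about 1 in 20 such combinations. Among genes past the test, Cd4 was low in COX-1>COX-2 sample 57, at 23.6 against 35.6 for the nearest sample (0.66 of the range). Il18rap was low in COX-2>COX-1 sample 54, at 81.4 against 151 (0.67). Mafg was high in WT+LPS sample 55, at 321 against 256 (0.643).

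Mef2a was low in WT+LPS sample 56, at 199 against 256 (0.634). Tnf was high in COX-1>COX-2 sample 59, at 1328 against 881 (0.683), and in COX-2>COX-1 sample 52, at 1388 against 609 (0.737). C1qa, a macrophage marker, was low in the same COX-2>COX-1 sample 52, at 3870 against 6572 (0.7).

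The Ptgs2 locus effect differed between the Ptgs1 locus states, by the test of the difference (limma, adjusted p under 0.05), for 4 genes. The log2 difference of Reversa minus COX-2>COX-1, less that of COX-1>COX-2 minus WT+LPS, was 6.49 for Ptgs2, 5.07 for Ptgs1, 2.08 for Csf2 and 1.62 for Mef2a. Ptgs2 was lower in both contrasts, with fitted differences of -4.59 in Reversa minus COX-2>COX-1 and -11.08 in COX-1>COX-2 minus WT+LPS. Since Ptgs2 lay under 20 in all COX-1>COX-2 samples and Ptgs1 in all COX-2>COX-1 samples, these fitted sizes rest on values near the floor. Against the level of 20, Ptgs2 was at least 240.6-fold lower in COX-1>COX-2 than in WT+LPS samples. Ptgs1 was at least 10.03-fold higher in Reversa than in COX-2>COX-1 samples. Csf2 differed by 0.95 and -1.13 in these contrasts.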

How the results depend on the processing

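The count of genes past the test of the Ptgs2 locus (18) was within 1.5 times of that value in most alternatives. It was 33 at equal total signal, 1 in run 2 alone, 2 in run 3 alone and 28 without the Reversa samples of runs 2 and 3, chosen after seeing the data. Leaving out 1 sample gave 12 to 29. With the native Ptgs1 locus the count (2) was 1 at each of 4 other scalings, with the filter on all LPS columns and in each run alone, and 1 to 2 when 1 sample was left out. With the exchanged Ptgs1 locus the count (20) was 12 with the filter on all LPS columns, 2 in run 1 alone, 12 in run 2 alone, 12 with a prior variance that follows the mean and 37 without the Reversa samples of runs 2 and 3; leaving out 1 sample gave 12 to 21. For the difference between Ptgs1 locus states the count (4) was 0 with the filter on all LPS columns, which leaves out Ptgs1, Ptgs2 and Csf2, 1 in run 1 alone, 2 without the Reversa samples of runs 2 and 3, and 2 to 7 when 1 sample was left out (7 without Reversa 51). For the Ptgs1 locus the count (9) was 0 in each run alone, 3 without the Reversa samples of runs 2 and 3 and 4 to 14 when 1 sample was left out (14 without Reversa 52). Fits of 1 run hold fewer samples; the cause of the other shifts was not tested.

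Sample numbers recur between groups, and 19 pairs with the same number correlated at -0.341 to 0.266 (median -0.011, 5 over 0.1), so the numbers were not taken to pair the samples. With the replicate block 4 genes passed for the Ptgs2 locus, 1 with the native and 10 with the exchanged Ptgs1 locus, 3 for the difference and 1 for the Ptgs1 locus.

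Exact permutation of single runs gave Ptgs2 differences of -8.49, -7.36 and -7.605 and Ptgs1 differences of 3.35, 3.40 and 3.77 in runs 1, 2 and 3; with so few samples a run cannot reach 0.05, and the smallest p was 0.0556. Leaving out 1 sample gave -7.95 to -7.64 for Ptgs2 and 3.29 to 3.57 for Ptgs1. In run 2 alone the sign turned for Il18rap (0.017), Cxcl1 (0.12), Cxcl3 (0.25) and Tyrobp (0.033). Cxcr2 turned in run 1 alone (-0.80) and without the Reversa samples of runs 2 and 3 (-0.20), and Hspb1 in run 3 alone (-0.076). The call was lost for Ptgir, Cd4, Bcl6 and Mef2a too without those Reversa samples (limma, adjusted p of 0.087, 0.0751, 0.088 and 0.0818). Signals under 20 are close to background, which limits Il13, Il5, Csf2 and Ptger3, and the size of the fitted differences of Ptgs2 and Ptgs1.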

Other observations

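Cytokines of the type 17 response varied widely among Reversa samples. Il17a had 349, 90.6, 2283, 4446 and 8634 in Reversa samples 51, 52, 53, 54 and the mean of 55 and 56, of which the first pair was measured in run 1. COX-1>COX-2 samples had 138, 228 and 632 (lowest, median and highest), WT+LPS samples 225, 423 and 602, and COX-2>COX-1 samples 355, 720 and 1446. Il22 had 580, 159, 2507, 4859 and 1892 in the Reversa samples, against 413, 1248 and 1799 in COX-2>COX-1 samples. Log2 differences between exchanged and native Ptgs2 locus were 0.01 for Il17a and -0.32 for Il22, and neither passed (limma, adjusted p of 0.98 and 0.65).

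Arg1, an arginine-degrading enzyme of alternative activation, differed by -0.80 in COX-1>COX-2 against WT+LPS and by 0.91 in Reversa against COX-2>COX-1, and neither passed. Cxcr4, the receptor of Cxcl12, had a log2 difference of 0.68 and Hspb1, a small heat shock protein, of 0.71 (limma, adjusted p of 0.12 and 0.098). Hspb1 had 328, 229, 213, 80.9 and 87.4 in the Reversa samples, against 28.6, 74.1 and 124 in COX-2>COX-1 samples, and passed in that contrast (log2 difference 1.31; limma, adjusted p = 0.027). Retnla, a marker of alternative activation, had 4640, 12521 and 31126 with the exchanged locus and 13714, 18860 and 40047 with the native locus, and did not pass (log2 difference -0.70; limma, adjusted p = 0.060).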
